A study of Mus musculus with 6 samples.

Results

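The genes described here are 45 genes of N-glycosylation and glycoprotein folding, which together build the N-glycan precursor, attach it to proteins in the endoplasmic reticulum (ER) and use it to monitor folding. They were picked by gene symbol from the 23412 genes of the expression table, and the group was drawn up because Alg13 and Uggt2 had higher values in the Htt-null line. The comparison of the lines for these 2 genes is therefore given as a description with no test, while the other 43 genes were tested along with all other expressed genes. All 45 genes had a mean normalized count of at least 5 over the libraries, the limit for testing, and belong to the 14276 genes tested. The lowest means were 25.1 for Alg5 and 25.7 for Alg8, the highest was 2921 for Calr, and no gene of the group fell outside the limit.

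The data are RNA-seq of undifferentiated mouse embryonic stem cells (mESCs) of the 129Sv strain. R1 is the wild type line and HN is a line with genotype Htt-/-, in which the promoter and exon 1 of both Htt copies are missing. Each line was sequenced in 3 libraries, made from batches of cells collected on 3 dates that both lines share, and replicate numbers below are these dates. Each genotype is represented by 1 line, grown without feeder cells in medium with LIF and inhibitors of FGF receptor, MEK and GSK3 signalling. Genotype therefore cannot be told apart from any other difference between the 2 lines, and p-values measure the spread between batches of these lines only.

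An N-glycan is made as a lipid-linked oligosaccharide. Sugars are added one by one to dolichol phosphate, first on the cytosolic face of the ER membrane by Dpagt1 and the Alg13/Alg14 pair and later in the lumen by further Alg enzymes, and oligosaccharyltransferase then moves the finished glycan onto asparagine residues of a new protein. Glucosidases trim the glycan, the lectins calnexin (Canx) and calreticulin (Calr) hold the glycoprotein while it folds, Uggt1 and Uggt2 put a glucose back on molecules that are still misfolded, and trimming of mannose marks those that fail for degradation.

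Htt had normalized counts of 230.0, 257 and 199 in the R1 libraries and of 18.3, 58.1 and 54.2 in the HN libraries (log2 fold change -2.52, adjusted p = 0.0141, limma without a date term). Depth ran from 1640391 to 3866717 gene reads in a library. The pluripotency genes fixed as markers summed to 15328 to 23563 normalized counts per library, with Pou5f1 and Nanog at 1994 or higher and 1864 or higher. Marker sums of other cell types were far below this, at 31.2 to 173 for fibroblasts or feeders, 37.0 to 158 for primitive endoderm, 128 to 232 for trophoblast, 196 to 320 for neural cells and 20.2 to 122 for mesoderm. Libraries of date 3 stood apart in both lines, with reads on 20675 (R1) and 20542 (HN) genes against 18133 to 19083 on the other dates.

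As a group the 45 genes took 0.573%, 0.539% and 0.509% of the R1 libraries and 0.647%, 0.603% and 0.576% of the HN libraries. Calr, Canx, Rpn1, Rpn2, Stt3a and Uggt1, the 6 most abundant genes, made up 56.4% to 58.8% of this sum. Levels between genes were compared per kilobase of exon. On this scale Calr was at 900.3 ± 272 and Canx at 431 ± 1.86 in R1 (SD, n = 3), followed by the oligosaccharyltransferase subunits Ddost (271 ± 61.0), Rpn1 (197 ± 29.0) and Rpn2 (173 ± 44.0), and the spreads of Rpn1 and Rpn2 overlapped. The lowest were Alg5 (7.87 ± 1.29), Srd5a3 (6.25 ± 0.391), Alg13 (5.04 ± 0.731) and Uggt2 (1.56 ± 1.14).

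**Figure D1:**
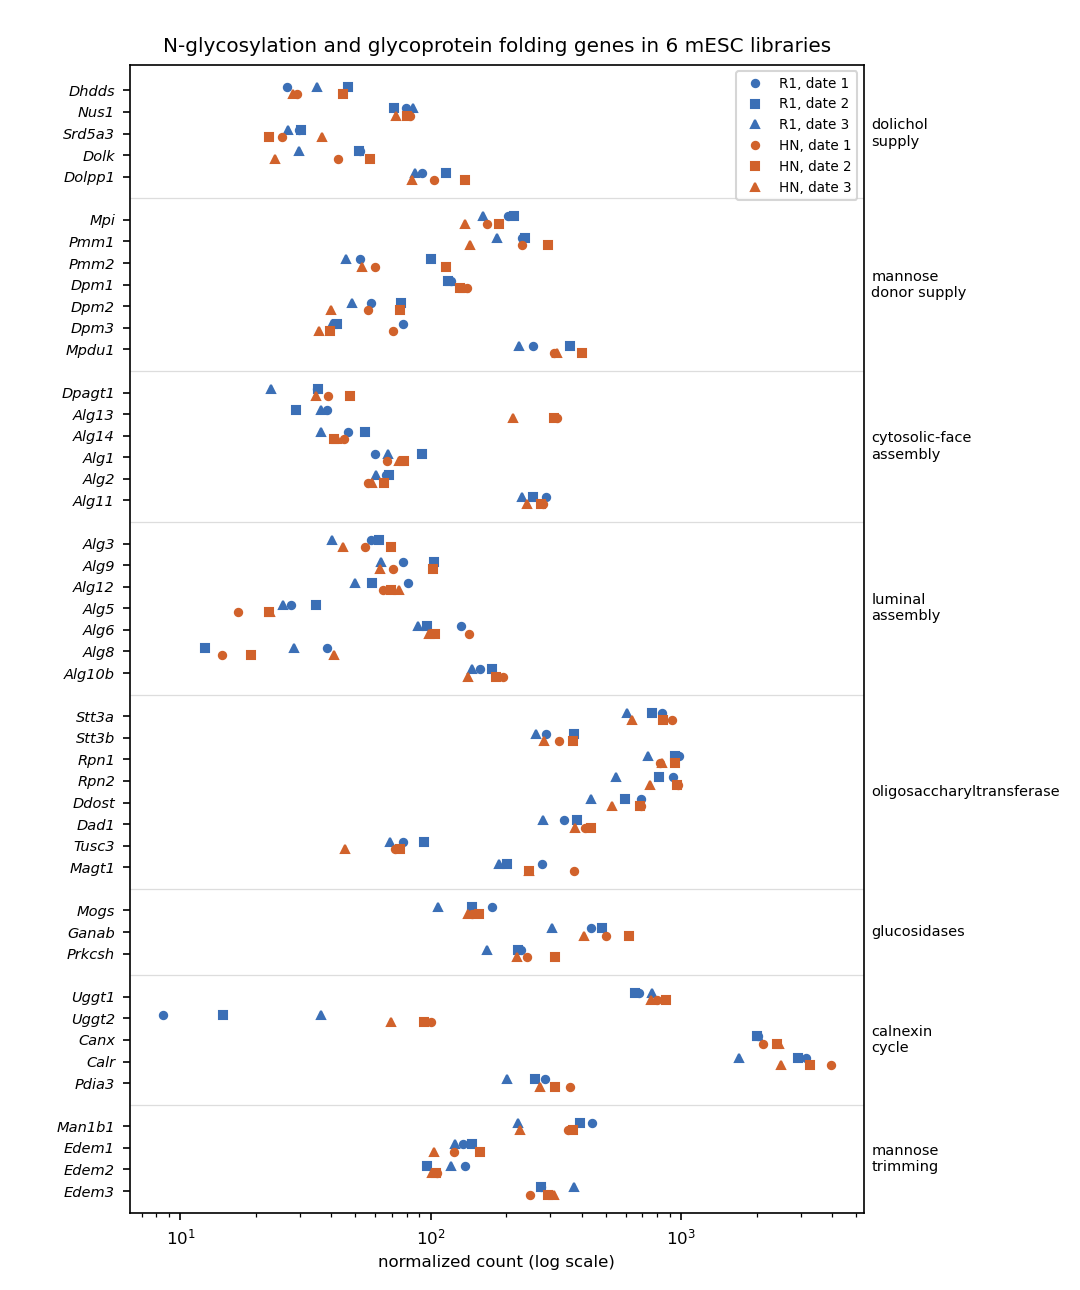
Normalized counts (log axis) of the 45 genes in each library, ordered by role; blue symbols are R1 and orange symbols are HN, and the symbol shape gives the collection date. Alg13 and Uggt2 are the genes whose orange symbols lie far to the right of the blue ones, and in most other genes the colours overlap.

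Alg13 is the catalytic subunit of the enzyme that adds the second N-acetylglucosamine to the dolichol-linked sugar. It lies at chrX:144317804-144374450 (GRCm38, plus strand). Its normalized counts were 38.3, 28.9 and 36.4 in R1 and 319, 311 and 212 in HN. The lines were far apart on every date, with log2 differences between HN and R1 of 3.02, 3.39 and 2.51, and the mean was 8.13-fold higher in HN. Per kilobase of exon the gene moved from 5.04 ± 0.731 in R1, rank 44 of 45, to 41.0 ± 8.67 in HN, rank 22 (SD, n = 3).

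Alg14 is the membrane partner that recruits Alg13 to the ER. Its normalized counts were 46.8, 54.7 and 36.4 in R1 and 45.02, 41.1 and 42.2 in HN, and the lines overlapped (log2 fold change -0.08, 95% interval -0.66 to 0.50 in limma without a date term). The ratio of Alg13 to Alg14 per kilobase was 0.299, 0.193 and 0.365 in R1 and 2.59, 2.77 and 1.84 in HN.

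Uggt2 is a paralogue of Uggt1, the glucosyltransferase that senses misfolded glycoproteins. It lies at chr14:118985039-119099430 (GRCm38, minus strand). Its normalized counts were 8.52, 14.8 and 36.4 in R1 and 99.8, 94.3 and 69.3 in HN. The lines did not overlap, yet their distance differed between dates, with log2 differences of 3.40, 2.59 and 0.91, and the R1 library of date 1 had only 8 reads on the gene. The mean was 4.41-fold higher in HN. The log2 fold change was 2.30 with all libraries and 3.0 without the libraries of date 3.

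Uggt1 was the more abundant paralogue in every library. It had normalized counts of 676, 652 and 766 in R1 and 804, 871 and 757 in HN (log2 fold change 0.22, adjusted p = 0.174 with the date as a block), and the lines overlapped. Per kilobase Uggt2 reached 0.0127, 0.0228 and 0.0478 of Uggt1 in R1 and 0.125, 0.109 and 0.092 of it in HN, so that it remained the lower of the pair in HN as well, with rank 43 of the 45 genes.

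Reads that could belong to other genes were few for both. Of the 50-base stretches of their transcripts, 0.138% (Alg13) and 2.17% (Uggt2) also occur in transcripts of another gene, and exons of Uggt2 overlap those of Gm16835. Since the library kit keeps no strand, reads of overlapping genes cannot be told apart. This touches 13 of the 45 genes, and for Dpm1, Alg1 and Alg9 over 10% of these stretches are shared (12.1%, 15.3% and 11.3%).

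Apart from Alg13 and Uggt2 the group showed small differences between the lines. None of the other 43 genes passed in either direction without the date in the fit (limma, adjusted p under 0.05), where 0.119% of all tested genes passed as higher in HN and 0.126% as lower. None of the 43 had an unadjusted p under 0.05 either, which 3.15% (higher) and 2.75% (lower) of all tested genes had, and edgeR and DESeq2 without the date also called 0. Their log2 fold changes ran from -0.48 (Alg5) to 0.38 (Dpagt1), with 24 above 0 (48.5% of all tested genes were) and 19 below it, and a median of 0.07, against -0.01 for all tested genes. In bulk RNA, fewer cells of a kind and less RNA per cell cannot be told apart.

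With the collection date as a block, 4 of the 43 genes rose in HN and 0 fell. They were Calr, Ganab, Magt1 and Pdia3. The share that rose was 9.3%, against 5.46% of all tested genes as higher and 4.02% as lower in this fit. The edgeR test with the block called 5 of the 43 genes higher, adding Prkcsh, and 0 lower, against 6.44% and 4.8% of all genes. DESeq2 with the block called 1 higher, Calr, and 0 lower, against 2.34% and 1.25%. Without the libraries of date 1, date 2 or date 3 the blocked fit called 4, 0 and 3 genes higher, not all of them the same. Without date 1, Magt1 (adjusted p = 0.118) and Pdia3 (0.0931) did not pass, and without date 3, Ganab (0.0725) and Pdia3 (0.0947) did not. Over all tested genes this fit called 731 higher and 398 lower without date 1, and 854 and 869 without date 3. Over all tested genes the calls without date 2 also fell, from 780 to 299 as higher and from 574 to 187 as lower. The log2 fold changes without date 2 were 0.45 for Calr, 0.31 for Ganab, 0.41 for Magt1 and 0.38 for Pdia3, against 0.35, 0.33, 0.37 and 0.34 with all dates, so that the calls ended while the sizes stayed close or grew. None of these 4 genes was over 1.30-fold higher in the mean, and with a log2 fold change beyond 1 also required 0 of the 43 passed, against 0.911% of all tested genes as higher and 1.04% as lower.

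**Figure D2:**
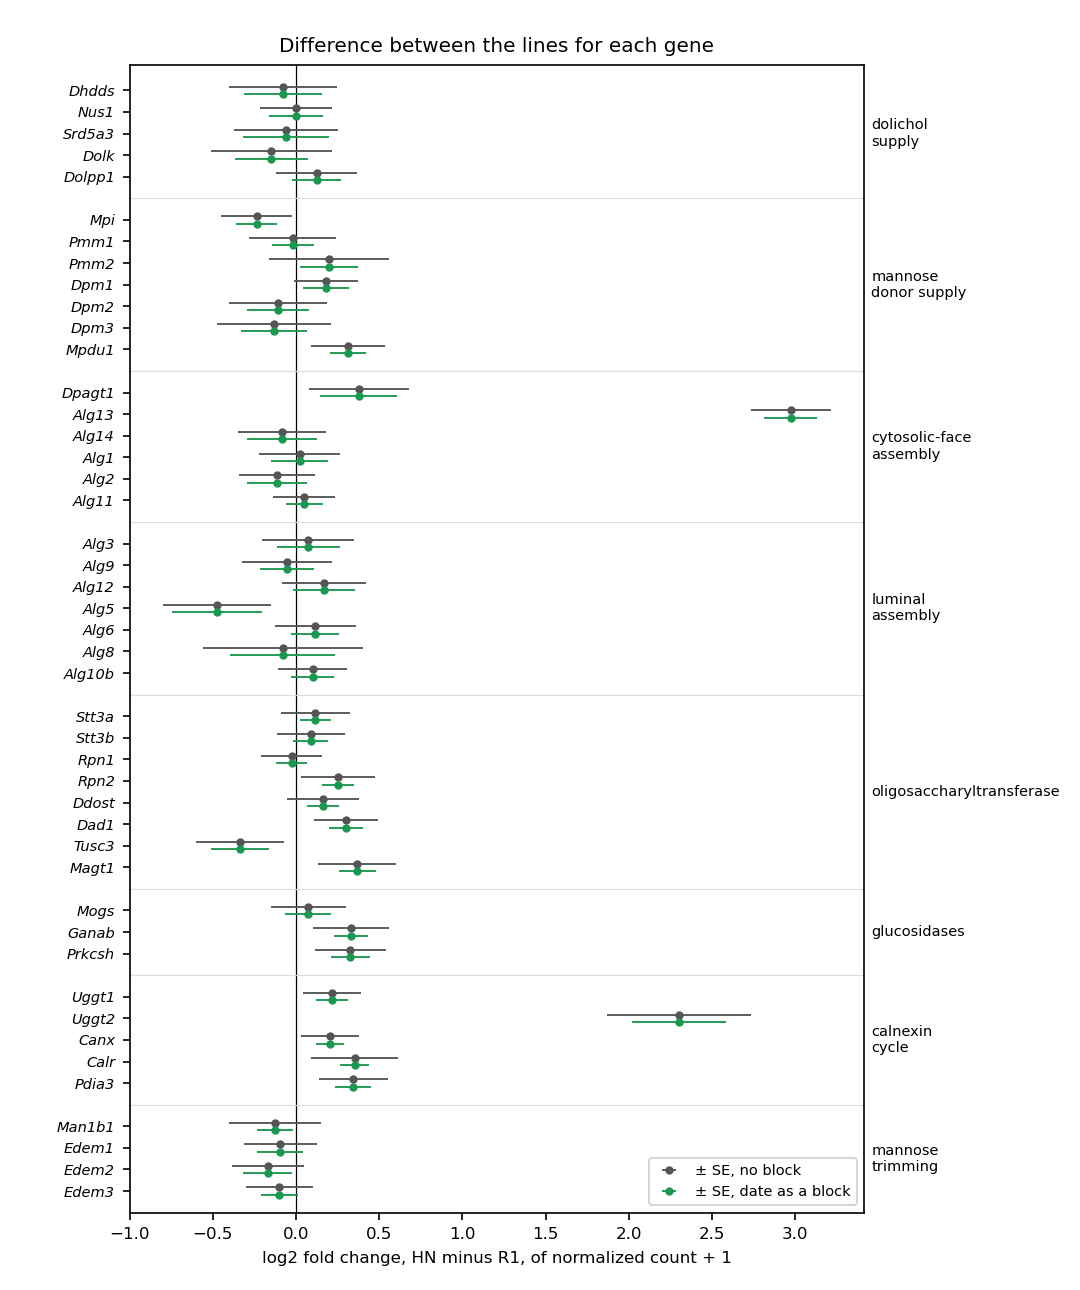
Log2 fold change of each gene, HN minus R1, with bars of ± 1 SE without (grey) and with (green) the date as a block; the vertical line marks 0. Alg13 (2.97) and Uggt2 (2.30) stand far to the right, and the other 43 genes lie between -0.48 and 0.38.

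The lectins and the oxidoreductase of the calnexin cycle were all on the higher side in HN, with a median log2 fold change of 0.28 over Uggt1, Canx, Calr and Pdia3. Calreticulin, the soluble lectin of the ER lumen, had normalized counts of 3153, 2929 and 1697 in R1 and of 3954, 3282 and 2509 in HN. The lines overlapped because both were lowest on date 3, but HN was higher on each date, and Calr rose with the block (log2 fold change 0.35 ± 0.09 SE, adjusted p = 0.00710). Pdia3, the thiol oxidoreductase that works with both lectins, was at 285, 261 and 202 in R1 and at 361, 314 and 272 in HN, and rose with the block as well (0.34 ± 0.11, adjusted p = 0.0413). Calnexin, the membrane-bound lectin, had 2030.1, 2013 and 2019 in R1 and 2128, 2406 and 2457 in HN. The R1 libraries of Canx were nearly equal and all lay below HN, but the difference did not pass (0.20 ± 0.09, adjusted p = 0.145 with the block). The ratio of Canx to Calr per kilobase was 0.516 ± 0.186 in R1 and 0.460 ± 0.136 in HN (SD, n = 3).

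The promoters of the group were searched for the ER stress response element (ERSE), through which Atf6 and Xbp1 are known to act on chaperone genes. The motif, chosen after the values had been seen, was read as CCAAT and CCACG with 9 bases between them, on either strand, from 250 bases before to 50 bases after each RefSeq start site (GRCm38.p6). A window was given for 41 of the 45 genes, and for Dpagt1, Alg2, Alg11 and Tusc3 none was. The motif was found in 3 of the 41 (7.32%), namely Calr, Canx and Alg12, against 0.181% of 10469 tested genes and 0.137% of 27025 genes with a window. In the list of ER chaperones and stress targets it was found in 5 of 15 genes (Creld2, Dnajc3, Hsp90b1, Hspa5 and Pdia6). It was also found in 2 of 12 genes of glycoprotein degradation (Derl3 and Syvn1), and in none of the other related lists. The shorter ERSE-II, ATTGG and CCACG with 1 base between them, was in 0 of the 41 windows and in 0.0764% of those of tested genes. Among the related lists, Dnajb11, Herpud1 and the oligosaccharyltransferase subunit Krtcap2 held it. CCACG alone, which both motifs hold, was in 56.1% of the windows of the group and in 52.5% of those of tested genes, and CCAAT in 56.1% and 42.9%. The 3 matches are printed with their surroundings, 5′ to 3′ on the strand of the gene, because 2 of them sit in the most abundant genes of the group; capitals mark the 2 parts of the motif, which in Calr lies on the opposite strand.
Calr, chr8:84847045-84847123: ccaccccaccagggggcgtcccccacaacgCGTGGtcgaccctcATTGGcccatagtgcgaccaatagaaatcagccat
Canx, chr11:50325770-50325848: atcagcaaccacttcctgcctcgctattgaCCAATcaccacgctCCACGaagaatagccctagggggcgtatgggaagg
Alg12, chr15:88819490-88819568: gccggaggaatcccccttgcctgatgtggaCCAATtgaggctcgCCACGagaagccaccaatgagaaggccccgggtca

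The match begins 162 bases before the start of Calr, 145 before that of Canx and 220 before that of Alg12. Of the 3 genes, Calr rose with the block, while Canx (above) and Alg12 (80.9, 58.4 and 49.9 in R1, 64.5, 69.5 and 74.7 in HN) did not pass. Uggt2 holds no match. Its 150 bases before the start, shown because the gene stood out between the lines, are 73.3% G and C with 17 CpG and 0 CCAAT, and capitals mark the 2 CCACG.
Uggt2, chr14:119099435-119099584: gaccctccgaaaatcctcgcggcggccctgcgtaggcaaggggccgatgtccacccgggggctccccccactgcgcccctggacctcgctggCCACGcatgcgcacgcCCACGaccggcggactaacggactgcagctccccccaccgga

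The glucosidases, which remove the outer glucoses before and after lectin binding, were also on the higher side, with a median log2 fold change of 0.33. Ganab, the catalytic subunit of glucosidase II, had 438, 484 and 305 in R1 and 502, 621 and 410.5 in HN, with HN higher on each date, and it rose with the block (0.33 ± 0.10, adjusted p = 0.0307). Prkcsh, the regulatory subunit of the same enzyme, was at 229, 223 and 167 in R1 and 243, 313 and 221 in HN. Its difference was as large (0.33 ± 0.12) and passed with edgeR (adjusted p = 0.0440) but not with limma (adjusted p = 0.0780), both with the block. Mogs, which removes the outermost glucose, had 176, 146 and 106 in R1 and 146, 155 and 141 in HN, with no common direction over the dates (0.07).

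Of the 8 oligosaccharyltransferase genes, 1 rose with the block and 0 fell, against 5.46% and 4.02% of all tested genes. Magt1, an oxidoreductase subunit of the complex built on Stt3b, had 279, 201 and 187 in R1 and 374, 246 and 247 in HN (0.37 ± 0.11, adjusted p = 0.0315). Both lines had their highest Magt1 value on date 1, and HN was higher on each date. Tusc3, which takes the same place in that complex, had 77.7, 93.9 and 68.7 in R1 and 71.8, 75.1 and 45.5 in HN (-0.34, adjusted p = 0.255). The ratio of Tusc3 to Magt1 per kilobase was 0.379, 0.635 and 0.5 in R1 and 0.262, 0.416 and 0.251 in HN, lower in HN on each date although the lines overlapped. The catalytic subunits Stt3a (0.12) and Stt3b (0.09) did not pass, and the ratio of Stt3b to Stt3a was 0.896 ± 0.154 in R1 and 0.874 ± 0.109 in HN. Of the shared subunits, Dad1 (0.30, adjusted p = 0.0626) and Rpn2 (0.25, adjusted p = 0.0893) missed the threshold with the block, and Ddost (0.16) and Rpn1 (-0.03) were farther from it.

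None of the other enzymes that assemble the glycan passed with or without the block. On the cytosolic face, Dpagt1, which starts the chain, had 35.1, 35.5 and 22.9 in R1 and 38.9, 47.5 and 34.7 in HN (0.38, 95% interval without the block -0.28 to 1.03). The mannosyltransferases Alg1 (0.02), Alg2 (-0.12) and Alg11 (0.05) were close to 0. In the lumen, the mannosyltransferases Alg3 (0.07), Alg9 (-0.05) and Alg12 (0.17) and the glucosyltransferases Alg6 (0.12), Alg8 (-0.08) and Alg10b (0.10) did not pass. Alg8 was the least even gene of these, with 38.3, 12.6 and 28.3 in R1 and 14.6, 19.1 and 41.2 in HN. Alg5, which makes the glucose donor, had 27.7, 34.8 and 25.6 in R1 and 17.0, 22.7 and 22.7 in HN; the lines did not overlap, but the difference did not pass (-0.48, adjusted p = 0.327 with the block). Among the 43 genes the lines did not overlap in 3, Canx and Dpm1 as higher and Alg5 as lower in HN, while 5.23% and 5.54% of all tested genes did not overlap in these directions.

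Genes that supply dolichol and mannose showed no called difference. In the dolichol steps, the chain-building pair Dhdds (-0.08) and Nus1 (0.00), the reductase Srd5a3 (-0.06), the kinase Dolk (-0.15) and the recycling phosphatase Dolpp1 (0.12) had a median log2 fold change of -0.06. In the mannose steps the median was -0.02. Mpi, which makes mannose 6-phosphate, had 203, 215 and 162 in R1 and 168, 186 and 138 in HN, lower in HN on each date (-0.24, adjusted p = 0.265 with the block). Mpdu1, needed for the use of dolichol-linked mannose and glucose, had 255, 361 and 225 in R1 and 310.3, 403 and 319.5 in HN, higher on each date (0.31, adjusted p = 0.0652 with the block). Dpm1, the catalytic subunit of dolichol phosphate mannose synthase, was even, with 120.3, 118 and 120.0 in R1 and 139.9, 130.4 and 135 in HN (0.18, adjusted p = 0.501 with the block), whereas its partners Dpm2 (-0.11) and Dpm3 (-0.13) and the mutases Pmm1 (-0.02) and Pmm2 (0.20) overlapped between the lines. The 4 mannose-trimming genes were all slightly lower in HN, with Man1b1 at -0.13, Edem1 at -0.09, Edem2 at -0.17 and Edem3 at -0.10, and none passed.

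HN was higher than R1 on all 3 dates in 15 of the 43 genes and lower on all 3 in 7. Over all tested genes these shares were 20.3% and 21.1%. The 15 were made up of 3 of 4 calnexin cycle genes, 2 of 3 glucosidase genes, 5 of 8 oligosaccharyltransferase genes, 3 of 7 mannose donor genes, 1 of 7 luminal and 1 of 5 cytosolic assembly genes, and 0 of 5 dolichol and 0 of 4 mannose-trimming genes. The 7 were 3 mannose donor, 2 luminal assembly, 1 cytosolic assembly and 1 oligosaccharyltransferase gene. Ddost was counted among the 15 although its date 1 values were nearly equal, at 690.9 in R1 and 691.1 in HN.

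Collection date was compared in a fit with both line and date, a contrast that played no part in choosing the genes. Of the 45 genes, 19 differed between dates (42.2%), against 46.0% of all tested genes (limma F test, adjusted p under 0.05). With DESeq2 the count for the group was 8, and 2448 of all genes differed, against 6569 with limma. The counts for the group and for all genes also moved when single libraries were left out, as given at the end. Date 3 was the lowest in both lines for 26 of the 45 genes (57.8%), compared with 29.5% of all tested genes, and the highest in both for 1, Edem3 (25.6% of all tested genes). Abundant genes were more often lowest on date 3. Among genes with a mean of at least 50 the shares were 24 of 38 (63.2%) in the group and 46.6% of the 7659 tested genes of that level.

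Calr had the lowest adjusted p for date in the group (3.26e-06, limma F test over the 3 dates). Date 3 minus the mean of the other dates was -0.68 on the log2 scale for Calr, whose counts are given above. This difference was -0.78 for Man1b1 and -0.91 for Dolk. Each adjusted p in this paragraph is for any difference among the dates, not for a single date. Man1b1, the mannosidase that begins mannose trimming, had 441, 394 and 224 in R1 and 354, 370.0 and 227 in HN. Its adjusted p for date was 1.35e-05 in the F test. The lines were close on date 3, and whether their distance changed with the date was not tested. Rpn2, Ganab, Stt3a, Ddost, Pmm1 and Dolk were lowest on date 3 in both lines too. So were Pmm2 and Dpm3, in which a single other date stood out. Pmm2, which makes mannose 1-phosphate, was highest on date 2, with 52.2, 101 and 45.8 in R1 and 59.6, 116 and 53.1 in HN (adjusted p = 1.78e-04). Dpm3, the small subunit that holds Dpm1 at the membrane, was highest on date 1, with 77.7, 42.2 and 40.4 in R1 and 70.6, 39.7 and 35.7 in HN (adjusted p = 0.00340). For these 2 genes the profile over dates was alike in both lines and the lines themselves overlapped.

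**Figure D3:**
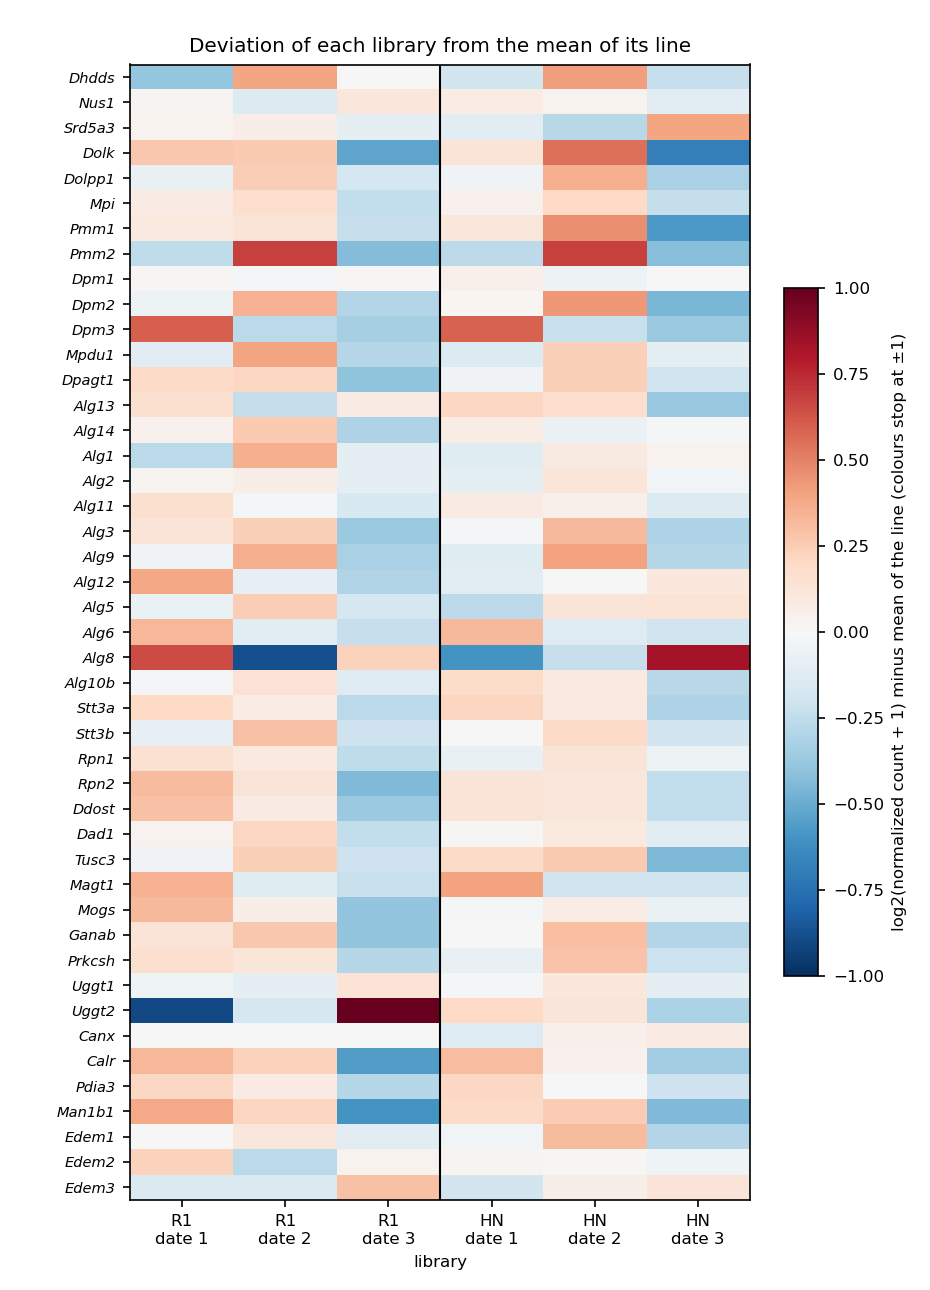
Deviation of each library from the mean of its line, in log2(normalized count + 1), for the 45 genes (rows) in the 6 libraries (columns); red is above and blue below the mean of the line. Many rows are blue on date 3 in both lines, among them Calr, Man1b1 and Dolk, and Pmm2 and Dpm3 show the same profile in R1 and HN.

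Cell type markers moved with the dates. All 6 primitive endoderm markers were highest on date 3 in both lines, and their sum was 44.7, 37.0 and 158 in R1 and 62.1, 37.6 and 138 in HN. The same held for 5 of 6 neural and 4 of 5 tested fibroblast or feeder markers. It also held for 3 of 4 tested mesoderm and 3 of 5 tested trophoblast markers, against 25.6% of all tested genes. Several of these markers had few reads, such as Foxa2 with 1 to 12 in a library. The fibroblast or feeder sum was 134, 74.0 and 173 in R1 and 71.8, 31.2 and 87.7 in HN. Postn and Dcn of this list were each at 0 in 1 R1 library. The pluripotency sum was lowest on date 3, with 15328 in R1 and 17056 in HN, and 7 of its 10 genes were lowest then in both lines. This was so for 29.5% of all tested genes and for 46.6% of those with a mean of at least 50. Markers also differed between the lines with the block, while none passed in limma without it. The blocked limma fit called 5.46% of all tested genes higher in HN and 4.02% lower. Of the 10 pluripotency genes, 5 were called higher in HN (Nanog, Esrrb, Klf4, Tfcp2l1 and Dppa5a) and 2 lower (Zfp42 and Utf1). Thy1 and Pdgfrb of the fibroblast or feeder list, Tfap2c of the trophoblast list and Tubb3 of the neural list were lower in HN, and Eomes of the trophoblast list and T of the mesoderm list were higher. The part of these markers in the date and line differences of the glycosylation genes was not tested.

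Genes of neighbouring pathways were read from the same fit, as 83 genes in 7 lists. Without the date 0 passed (4 had an unadjusted p under 0.05), and with the block 7 rose (8.43%) and 2 fell, against 5.46% and 4.02% of all tested genes. Without date 2 the blocked fit had 2 risers and 1 faller, and without date 3 it had 5 and 7. The largest change was in Fbxo2, an F-box protein that recognises high-mannose glycans on discarded glycoproteins, with 175, 83.6 and 60.7 in R1 and 35.3, 31.9 and 22.7 in HN (-1.67 ± 0.20, adjusted p = 2.86e-07). Its relative Fbxo6 fell too (-0.46, adjusted p = 0.0143), and the lectin Os9, which hands misfolded glycoproteins to the degradation machinery, rose (0.54, adjusted p = 0.0146). Dnajc3, an ER co-chaperone of Hspa5, rose from 109.6, 107 and 117 to 234, 191 and 177 (0.83 ± 0.13, adjusted p = 3.57e-05) and was the 1 of 18 ER chaperones and stress targets that passed with the block in limma. Hspa5 itself was at 0.23 (adjusted p = 0.0818) and Hsp90b1 at 0.15.

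Malectin (Mlec), which binds the glycan with 2 glucoses, had 1477, 1558 and 993 in R1 and 1942, 2084 and 1333 in HN and rose on each date (0.41 ± 0.09, adjusted p = 0.00108). The other risers were Man2a1, a Golgi mannosidase (0.48, adjusted p = 0.0156), the translocon-associated Ssr4 (0.44, adjusted p = 0.0150), and the sugar phosphate enzymes Gpi1 (0.45, adjusted p = 5.02e-04) and Gnpnat1 (0.46, adjusted p = 0.0316). With DESeq2 and the block, Fbxo2, Dnajc3, Mlec and Gpi1 still passed, while Fbxo6 (adjusted p = 0.128), Os9 (0.222), Man2a1 (0.184), Ssr4 (0.167) and Gnpnat1 (0.272) did not. The small oligosaccharyltransferase subunits Ostc, Ost4, Tmem258 and Krtcap2 all had negative values, with a median of -0.19, and none passed in limma with the block. With edgeR and the block Tmem258 passed as lower (-0.34, adjusted p = 0.0358).

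The genes of the group lie on 16 chromosomes, and Uggt2 lies in a stretch where other genes were higher in HN as well. All 7 tested genes within 1 Mb of Uggt2 had positive log2 fold changes, with a median of 0.56, although Hs6st3, a gene of few reads, had the lower mean in HN (11.4 against 13.6) and was lower there on date 3. Of the 7, 4 rose with the block (0 without it), against 5.46% of all tested genes. These were Tgds (1.61, adjusted p = 4.31e-05), Gpr180 (0.83, adjusted p = 0.00198), Dzip1 (0.56, adjusted p = 0.0373) and the nearest, Dnajc3, which ends 3342 bp from Uggt2. Tgds had 12.8, 13.3 and 20.2 in R1 and 38.9, 53.9 and 53.1 in HN, and the lines did not overlap. On chromosome 14 as a whole, 19.6% of 459 tested genes rose with the block, with a median log2 fold change of 0.25, and Dad1 is the other gene of the group there. On chromosome 8, 14.2% of 704 tested genes fell with the block and the median was -0.22. It carries Calr (0.35), Alg11 (0.05) and Tusc3 (-0.34). Within 1 Mb of Alg13, 1 gene was tested, Pak3, at 0.05. The part of these chromosome-wide shifts in the values of Uggt2, Dad1, Calr, Alg11 and Tusc3 was not tested.

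**Figure D4:**
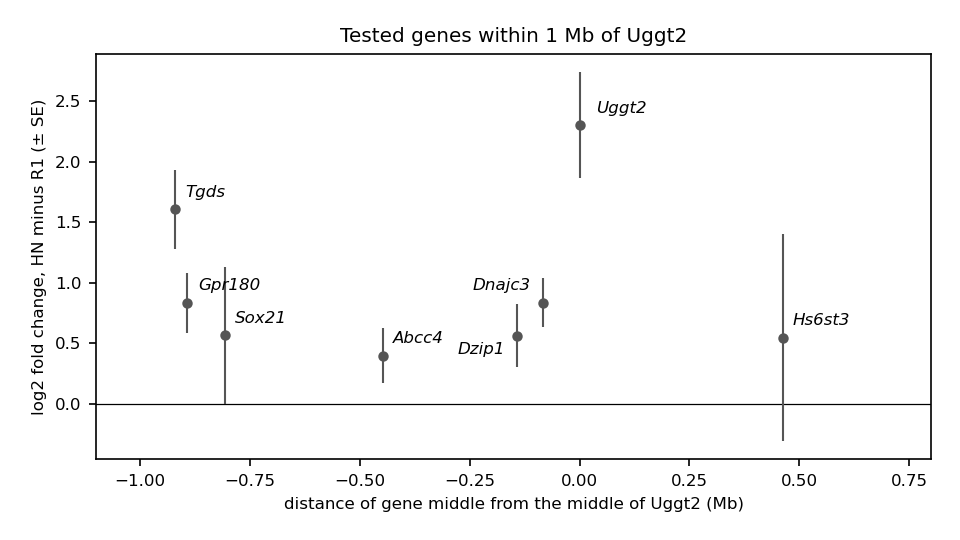
Log2 fold change, HN minus R1, with bars of ± 1 SE without a block, of the tested genes within 1 Mb of Uggt2, plotted by the distance of their middle from that of Uggt2 in Mb. All 7 neighbours lie above 0, and Tgds (1.61) comes closest to Uggt2 (2.30).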

How the data were processed

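What was deposited is 1 normalized count (a signal) for each gene and library. To obtain it the authors mapped reads to mm10 with STAR, dropped duplicates with Picard, counted with HTSeq and scaled by DESeq2 size factors; versions and annotation are not given in the sources used here. Reads were recovered from the values, 100% of which were within 0.01 of a whole read. Unused columns of per-sample values numbered 0. Values were compared as log2(value + 1) with limma 3.58.1 (variance trend, R 4.3.3) for genes with a mean of at least 5, with Benjamini-Hochberg adjustment over all 14276 genes; passing means an adjusted p under 0.05. Fold changes on this scale understate those of low genes.

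Replicate numbers stand for collection dates in the labels, and same-date libraries deviated together (correlations 0.25, 0.688 and 0.768), so fits with date as a block are given beside those without. Alternatives were edgeR 4.0.16, DESeq2 1.42.0, other pseudocounts, filters and scalings, and libraries or dates left out. Members, lists and motifs were chosen with earlier results of these data known. All genes of the group, Htt, related genes and neighbours that passed are named. Positions come from GENCODE M21 (GRCm38), sequences from RefSeq (GRCm38.p6). The fits were tested on simulated counts. Intervals cover the libraries only, and an exact two-sided permutation of 3 against 3 cannot give a p under 0.1.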

Additional observations from a re-analysis of the deposited data

How the results depend on the processing

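Without the block, the number of all tested genes higher and lower in HN was 17 and 18. It became 780 and 574 with the replicate block, 920 and 685 with edgeR and the block, 334 and 179 with DESeq2 and the block, 952 and 618 with median centring and the block, and 68 and 43 with DESeq2 alone. Median centring alone gave 30 higher, and limma without the variance trend 0 and 0. The blocked fit gave 731 and 398 without date 1, 299 and 187 without date 2, and 854 and 869 without date 3, and leaving out 1 library without the block gave 3 to 31 and 4 to 26. These last fits leave 2 libraries in 1 line.

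Of the 43 genes other than Alg13 and Uggt2, 0 were higher and 0 lower without the block, and 0 to 0 with any 1 library left out. The block gave 4 higher, edgeR with the block 5, DESeq2 with the block 1 and median centring with the block 7. Without date 1, date 2 or date 3 the block gave 4, 0 and 3 higher, not all of them the same genes. Among the related genes, 0 and 0 passed without the block. Higher and lower were 7 and 2 with the block, 8 and 3 with edgeR and the block, 1 and 1 with DESeq2, 3 and 1 with DESeq2 and the block, 9 and 2 with median centring and the block, and 7 and 2, 2 and 1, and 5 and 7 with the block but without date 1, 2 or 3. Leaving out 1 library gave 0 to 0 higher and 0 to 1 lower, the 1 being Fbxo2 without R1 replicate 3.

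For collection date, 6569 of all genes and 19 of the group differed. DESeq2 gave 2448 and 8, limma without the trend 0 and 0, a mean of at least 50 gave 4090 of all genes, and leaving out 1 library gave 3270 to 7661 and 10 to 26, lowest for the group without HN replicate 2. With a mean of at least 50, 7659 genes were tested, against 14276 for the count of 6569. Leaving out 1 library leaves 1 library on that date. The cause of these changes in count was not tested.

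The log2 fold change of Alg13 stayed between 2.69 and 3.21 and that of Uggt2 between 1.75 and 3.0 over 22 alternatives. Of the 45 genes, 20 kept their sign in all of them and 25 changed sign in at least 1 while not passing. Calr passed in 6 of 23 fits, Magt1 and Ganab in 4 each, and Pdia3 and Prkcsh in 3 each. Depth limits the low genes most, above all Uggt2 in R1.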
